A study of Mus musculus with 6 samples.

Results

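The p53 targets and senescence genes examined here are 35 genes that halt the cell cycle, promote cell death, repair DNA or respond to metabolic stress when the transcription factor p53 is active, together with the gene of p53 itself, its regulators and the INK4 inhibitors of the cell cycle. They were chosen by gene symbol, with earlier results of these data known. Every probe set that the platform annotation gives to 1 of these genes alone was taken, which found 61 probe sets for 32 of the 35 genes, among 45037 probe sets in all. Bax, Gdf15 and Trp53 were not analysed here. Receptors of the tumour necrosis factor family, some of which are also p53 targets, were left out of the group.

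The hearts came from 3 DNMTs-Tg mice (replicates 1, 5 and 6) and 3 wild-type mice (replicates 1, 4 and 6), all 8 weeks old, with 1 Affymetrix array per mouse. DNMTs-Tg mice express the de novo DNA methyltransferase isoform DNMT3A2 and its catalytically inactive partner DNMT3L ectopically in many somatic tissues. Per the labels they came from FVB-Tg(Ddx4-cre)1Dcas/J females, which express Cre recombinase in germ cells, mated with males carrying the floxed construct of an earlier study. The sources used here do not name the promoter that drives the transgenes, the strain of the floxed line or the origin of the wild-type mice. The study asked which genes are abnormally silenced by these enzymes in the heart, and DNA methylation itself was not analysed here. Heart tissue holds many cell types, so fewer cells of a type and less RNA per cell cannot be told apart.

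p53 is held at low levels by the ubiquitin ligase Mdm2 and its relative Mdm4. DNA damage and other stresses release it, and it then binds paired copies of a short half-site near its target genes and raises their transcription. Cdkn1a, the inhibitor of cyclin-dependent kinases, mediates much of the arrest, while the INK4 inhibitors act beside it and hold cells in senescence through the retinoblastoma proteins. Most cardiomyocytes of the adult heart have left the cell cycle, and p53 is known there for its part in cell loss under stress.

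The transgene separated the genotypes. Dnmt3l had log2 signals of 12.19 to 12.38 on the DNMTs-Tg arrays and 5.17 to 5.48 on the wild-type arrays. The sex labels did not match the RNA. All but wild-type replicate 6 are female by label, but the Y-linked gene Eif2s3y stood at 9.41 to 9.52 on 5 arrays and at 3.32 on that of wild-type replicate 4, the one with a high signal of the X-inactivation transcript Xist (10.10, against 4.52 to 4.96). All 10 cardiomyocyte markers were among the bright genes, at 11.74 to 14.73 over the 6 arrays, with a list value (the mean of the markers relative to the wild-type mean) of -0.31 to -0.03 in the DNMTs-Tg arrays. DNMTs-Tg replicate 1 stood apart for the 12 macrophage markers, with a list value of 1.30, where the other DNMTs-Tg arrays had -0.14 and -0.00 and wild-type arrays had -0.13 to 0.16, and for the 12 fibroblast markers, with 1.21, against 0.28 and 0.15 in the other DNMTs-Tg arrays and -0.17 to 0.22 in wild-type ones. The fibroblast markers were uneven in replicate 1. Against their wild-type means, Postn read 12.77 (9.24), Mfap5 11.34 (8.51) and Col1a1 10.71 (8.02). Tcf21 read 7.99 (7.83) and Ddr2 8.24 (8.06), and Dpt alone lay lower, at 10.83 (11.03). The 6 measured neutrophil markers had a list value of 0.66 to 0.80 in DNMTs-Tg and -0.24 to 0.29 in wild-type arrays. Most of it came from S100a8 and S100a9, with log2 differences between the groups of 1.86 and 2.14. Csf3r differed by 0.43, Elane by 0.09, Camp by 0.13 and Ngp by -0.21. Gapdh, whose 3' minus 5' control signal is a sign of RNA integrity, gave 0.53 to 0.75 (log2) in DNMTs-Tg and 0.40 to 0.50 in wild-type arrays. The part of these differences in the results was not tested, beyond the fits without single arrays given below.

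In DNMTs-Tg hearts 5 of the 30 genes that passed a filter on dim probe sets rose and 0 fell. The 5 were Aen and Phlda3 of the apoptosis group, Zmat3 of the p53 loop, Plk2 of the arrest group and Polk of the repair group, with rises of 1.68-fold to 2.29-fold. They make up 16.7% of the 30, whereas 2.24% of the 13621 genes tested rose and 3.15% fell. The members were chosen with earlier results of these data known, so their shares here and below are no independent test. A gene was called where limma's p, adjusted over all genes tested by the Benjamini-Hochberg method, was below 0.05. At an unadjusted p below 0.05, 9 members lay higher and 1 lower, against 12.9% and 13.1% of all genes. The DNMTs-Tg values all lay above the wild-type values for 11 members (36.7%, against 17.3% of all genes) and all below them for 2 (6.67%, against 17.6%).

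Over the 30 genes the median log2 difference, DNMTs-Tg minus wild-type, was 0.23, with quartiles of 0.04 and 0.70, and 23 of the differences (76.7%) were above 0. The median over all genes tested was 0.0058, and 50.8% of them were above 0. Relative to the wild-type mean, the 30 genes averaged 0.64, 0.40 and 0.20 (log2) in DNMTs-Tg replicates 1, 5 and 6, with wild-type arrays at -0.03 to 0.03. Replicate 1 was above every wild-type array for 21 members, replicate 5 for 17 and replicate 6 for 14, where 39.5%, 34.4% and 36.0% of all genes were. The order replicate 1 above 5 above 6 held for 15 of the 30 members and for 23.6% of all genes. The spread was larger in DNMTs-Tg than in wild-type arrays for 22 of the 30, a share near the 71.7% of all genes.

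**Figure D1:**
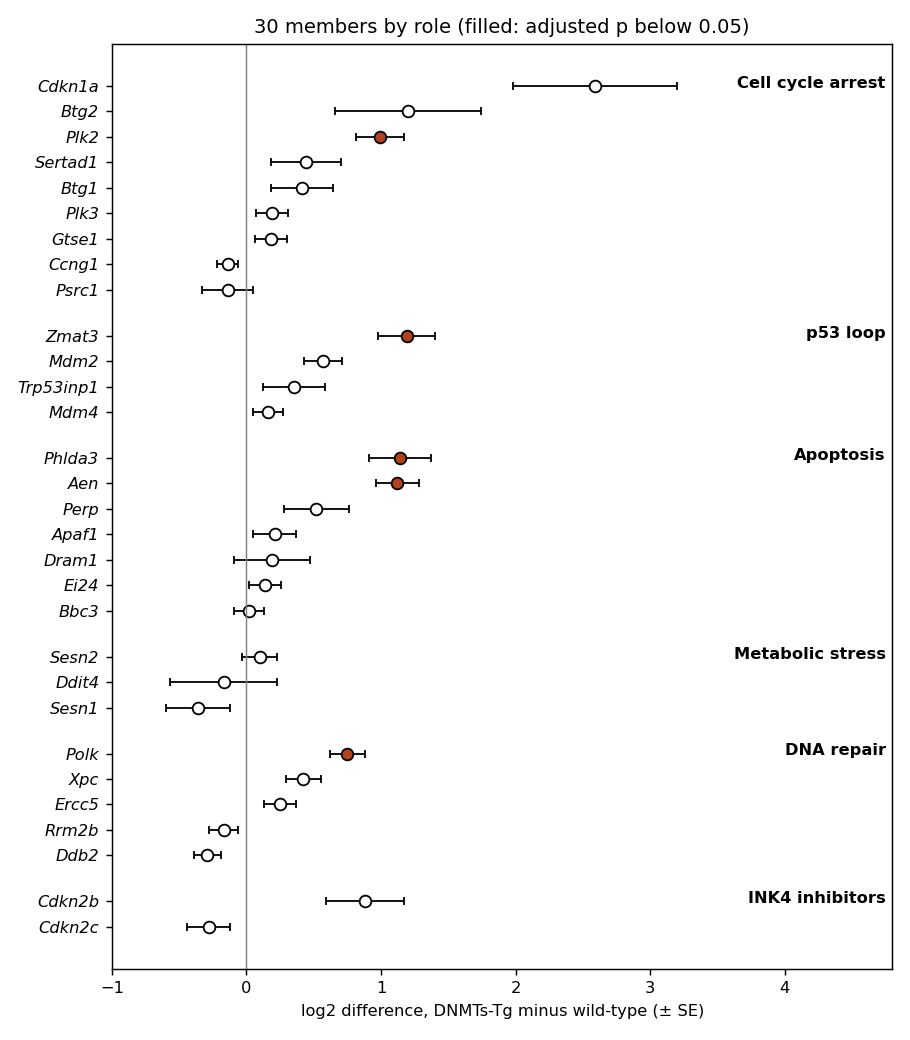
Log2 difference, DNMTs-Tg minus wild-type, for the 30 member genes tested, grouped by role, with bars for the SE from limma (3 arrays per group). Filled points mark the 5 genes past the threshold, Zmat3, Phlda3, Aen, Plk2 and Polk. Cdkn1a has the largest difference, 2.59, and one of the widest bars.

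The proximal promoters, taken from RefSeq on build GRCm38.p6 as 250 bases before to 50 after each annotated start, were found for 24 of the 30 tested members. Ddb2, Perp, Rrm2b, Trp53inp1, Xpc and Zmat3 had no entry. They are shown for Cdkn1a and the called genes, the members with the largest difference and with the calls, because the design concerns DNA methylation, which acts at CpG sites. The start shown is the upstream one for Cdkn1a and Aen, and the downstream, internal one for Polk. The other starts of Cdkn1a and Polk, which are richer in CpG and held no half-site of p53, are not shown. For both genes the window shown is thus the one with a half-site and few CpG. Each reads from 5′ to 3′ on the strand of the gene, and capitals mark matches to the consensus half-site of p53, a palindrome of 10 bases searched on both strands. Cdkn1a lies at chr17:29090729-29091028 (plus strand), Aen at chr7:78895677-78895976 (plus), Polk at chr13:96519138-96519437 (minus), Phlda3 at chr1:135765835-135766134 (plus) and Plk2 at chr13:110394794-110395093 (plus).
Cdkn1a: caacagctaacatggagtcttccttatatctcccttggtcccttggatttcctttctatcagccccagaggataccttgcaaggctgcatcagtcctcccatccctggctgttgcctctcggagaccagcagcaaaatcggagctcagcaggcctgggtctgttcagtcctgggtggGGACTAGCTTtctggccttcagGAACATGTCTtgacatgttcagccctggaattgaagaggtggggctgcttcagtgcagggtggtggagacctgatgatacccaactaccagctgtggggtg
Aen: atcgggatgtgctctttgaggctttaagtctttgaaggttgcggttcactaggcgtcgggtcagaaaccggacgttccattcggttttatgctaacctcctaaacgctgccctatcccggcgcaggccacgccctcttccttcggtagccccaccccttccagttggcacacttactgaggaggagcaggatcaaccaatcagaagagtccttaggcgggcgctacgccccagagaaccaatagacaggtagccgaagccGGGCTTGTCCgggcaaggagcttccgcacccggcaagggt
Polk: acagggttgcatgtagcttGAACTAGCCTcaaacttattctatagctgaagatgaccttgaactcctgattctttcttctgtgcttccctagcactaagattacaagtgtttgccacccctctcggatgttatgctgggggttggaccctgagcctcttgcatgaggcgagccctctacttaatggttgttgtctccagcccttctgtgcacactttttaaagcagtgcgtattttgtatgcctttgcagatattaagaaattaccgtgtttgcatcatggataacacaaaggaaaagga
Phlda3: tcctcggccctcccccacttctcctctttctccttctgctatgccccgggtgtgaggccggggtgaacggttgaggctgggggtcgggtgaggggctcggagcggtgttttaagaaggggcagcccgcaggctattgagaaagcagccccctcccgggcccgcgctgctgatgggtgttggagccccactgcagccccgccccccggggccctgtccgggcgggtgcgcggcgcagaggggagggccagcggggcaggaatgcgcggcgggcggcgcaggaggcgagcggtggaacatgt
Plk2: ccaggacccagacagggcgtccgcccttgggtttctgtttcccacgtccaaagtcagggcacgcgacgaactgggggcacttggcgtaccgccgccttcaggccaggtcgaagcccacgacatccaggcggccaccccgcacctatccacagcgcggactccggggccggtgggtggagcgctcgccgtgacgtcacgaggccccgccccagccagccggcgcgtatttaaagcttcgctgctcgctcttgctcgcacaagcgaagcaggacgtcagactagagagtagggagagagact

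Only exact matches to the consensus were counted. The upstream promoter of Cdkn1a held 2 half-sites, GGACTAGCTT from base 73 and GAACATGTCT from base 51 before the start, with 12 bases between them. The stretch directly after the second, tgacatgttc, misses the consensus at 1 base and was not counted, so the 2 marked sites need not be a pair. Aen had 1 from base 11 after its first start, which is also inside the window of its second start, and Polk had 1 from base 231 before its internal start. Phlda3 and Plk2 had no match in these windows, and neither had the other, more CpG-rich starts of Cdkn1a and Polk. A half-site cut by the edge of a window could not be found. The Phlda3 window ends in gaacatgt, which fits the start of the consensus, so a site there is undecided. Over the 24 members with a promoter, 8 (33.3%) had a half-site in at least 1 window, the others being Ccng1, Ei24, Gtse1, Mdm2 and Sesn1. Of the 10943 tested genes with a promoter, 8.41% did. These members were assembled as known p53 targets, and the 8 include genes with differences of -0.36 (Sesn1) to 2.59 (Cdkn1a).

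CpG sites are the main substrate of DNMT3A2. The median observed-over-expected CpG ratio was 0.77 over the 34 windows of the 24 members, and 0.72 over the 13981 windows of all tested genes. The ratio was above 0.6 for 85.3% of the members' windows and 63.2% of those of all tested genes. The windows shown had 26 CpG (Phlda3), 31 (Plk2), 20 (Aen), 4 (Polk) and 2 (Cdkn1a). The second starts of Polk and Cdkn1a had 25 and 23. The 4 called genes with a promoter had ratios of 0.69 to 0.94 at their most CpG-rich start, within the range of the other members. Whether any of these CpG sites was methylated was not analysed here.

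**Figure D2:**
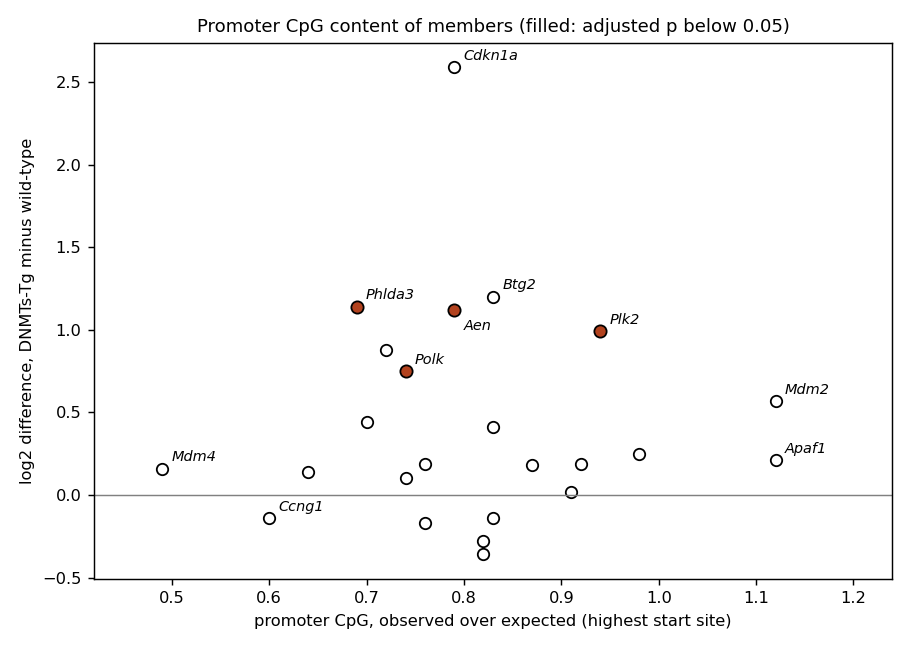
Log2 difference, DNMTs-Tg minus wild-type, of the 24 members with a promoter against the observed-over-expected CpG ratio of their most CpG-rich start site. Filled points are the called genes with a promoter (Phlda3, Polk, Aen and Plk2, at ratios of 0.69, 0.74, 0.79 and 0.94), and Mdm4 has the lowest ratio, 0.49.

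Aen encodes a nuclear exonuclease that p53 induces and that takes part in the breakdown of DNA in apoptosis. Its brightest probe set read 9.85, 9.96 and 9.43 (log2 signal) in DNMTs-Tg replicates 1, 5 and 6 and 8.78, 8.46 and 8.63 in wild-type replicates 1, 4 and 6. All DNMTs-Tg hearts lay above all wild-type hearts, with replicate 6 the lowest of the 3. Aen was 2.18-fold higher (log2 difference 1.12 ± 0.16, SE, n = 3 per group, adjusted p = 0.0154). The other 3 probe sets of Aen also lay higher, by 0.45, 0.90 and 0.52, and none of these passed when every probe set was tested (adjusted p = 0.229, 0.137 and 0.0571).

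Phlda3, a small protein with a lipid-binding domain that keeps the survival kinase Akt from the membrane, had signals of 8.86, 8.70 and 8.01 in DNMTs-Tg replicates 1, 5 and 6 and of 7.45, 7.19 and 7.52 in wild-type replicates 1, 4 and 6. The groups did not overlap, and DNMTs-Tg replicate 6 was again the closest to wild-type. The difference was 1.14 ± 0.23 (SE, adjusted p = 0.0379), or 2.20-fold. Zmat3 (chr3:32334792-32365665, GRCm38.p6) encodes a zinc-finger protein that binds RNA and alters splicing and stability of its target transcripts. It read 8.49, 8.30 and 7.69 in DNMTs-Tg replicates 1, 5 and 6, against 7.09, 6.87 and 6.94 in wild-type replicates 1, 4 and 6. The wild-type hearts were close together (SD 0.11) and the DNMTs-Tg hearts farther apart (SD 0.42). Zmat3 was 2.29-fold higher (1.19 ± 0.21, SE, adjusted p = 0.0256), the largest of the 5 called rises. Each of these genes has a single probe set.

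Plk2, a polo-like kinase with a role in centriole duplication, had 9.68, 9.31 and 9.15 in DNMTs-Tg replicates 1, 5 and 6 and 8.61, 8.12 and 8.44 in wild-type replicates 1, 4 and 6. The groups did not overlap, and the spread was alike in both (SD 0.27 and 0.25). The rise was 1.99-fold (0.99 ± 0.18, SE, adjusted p = 0.0289). A second, dimmer probe set of Plk2, which passed the filter, went the other way (-0.40, adjusted p = 0.287). With the mean of both the call was lost (0.29, adjusted p = 0.159).

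Polk encodes DNA polymerase kappa, which copies past damaged bases. It read 7.45, 7.31 and 7.11 in DNMTs-Tg replicates 1, 5 and 6 and 6.58, 6.58 and 6.47 in wild-type replicates 1, 4 and 6. The rise of 1.68-fold (0.75 ± 0.13, SE, adjusted p = 0.0228) was the smallest of the 5, with groups that did not overlap and little spread (SD 0.17 and 0.07). A dimmer probe set of Polk showed no such difference (-0.03 ± 0.15, adjusted p = 0.926), and the mean of the 2 did not pass (0.36, adjusted p = 0.109).

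**Figure D3:**
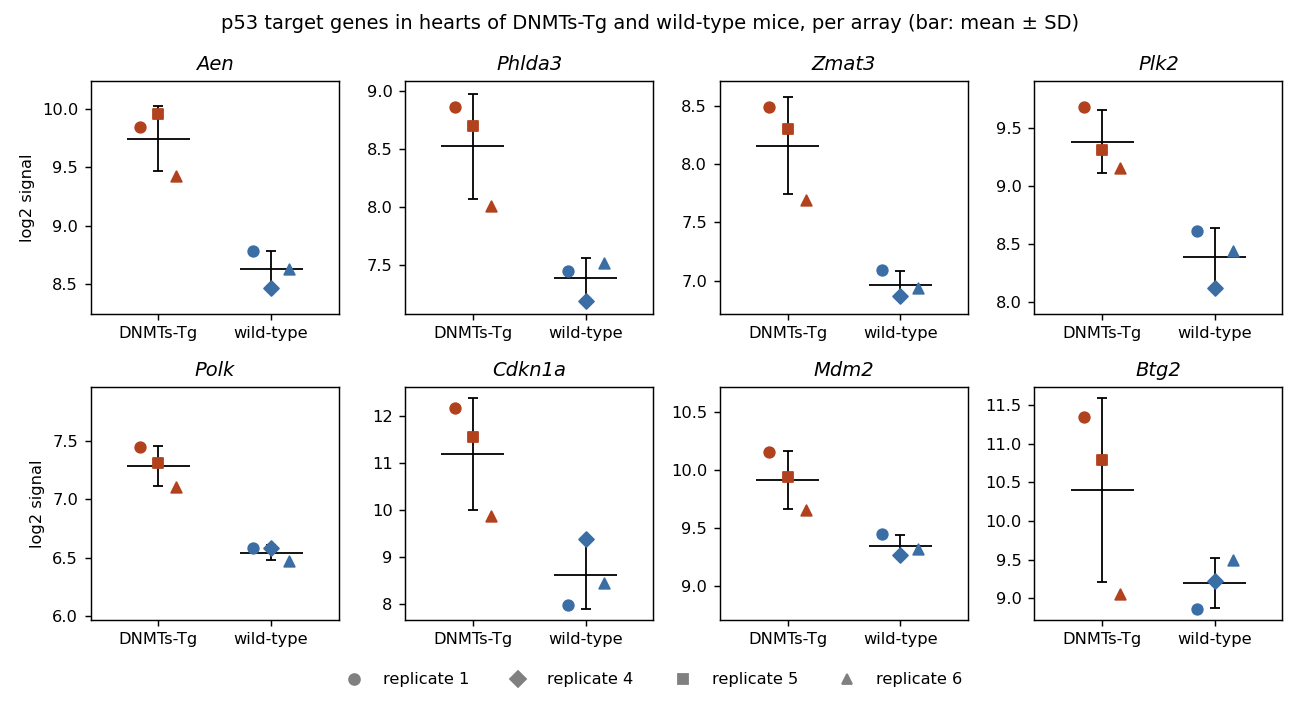
Log2 signal per array of the 5 called genes and of Cdkn1a, Mdm2 and Btg2, with DNMTs-Tg left of wild-type, bars for the mean ± SD (n = 3 each) and a marker shape for each replicate number. The vertical axes differ between panels. In the first 5 panels and in those of Cdkn1a and Mdm2 the groups do not overlap, and for Btg2 DNMTs-Tg replicate 6 (9.06) lies among the wild-type values (8.86 to 9.50).

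Without DNMTs-Tg replicate 1, the array with the high macrophage and fibroblast markers, the 5 genes were called again, at differences of 1.07 for Aen, 0.97 for Phlda3, 1.03 for Zmat3, 0.84 for Plk2 and 0.66 for Polk, while 3.27% of all genes were called higher. Without DNMTs-Tg replicate 6 the members called higher numbered 11 (5.98% of all genes). These were the 5 with Btg2, Cdkn1a, Cdkn2b, Mdm2, Sertad1 and Xpc. Without DNMTs-Tg replicate 5, wild-type replicate 1, wild-type replicate 4 or wild-type replicate 6, 0 members were called, while 0.360%, 0.316%, 0.374% and 0.536% of all genes were called higher. Without wild-type replicate 4 all arrays were of male type by their RNA, and the differences were 1.04 for Aen (adjusted p = 0.0711), 1.04 for Phlda3 (adjusted p = 0.145), 1.15 for Zmat3 (adjusted p = 0.105), 0.86 for Plk2 (adjusted p = 0.105) and 0.76 for Polk (adjusted p = 0.0957). With any 1 array left out the differences of these 5 stayed between 0.66 and 1.43.

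**Figure D4:**
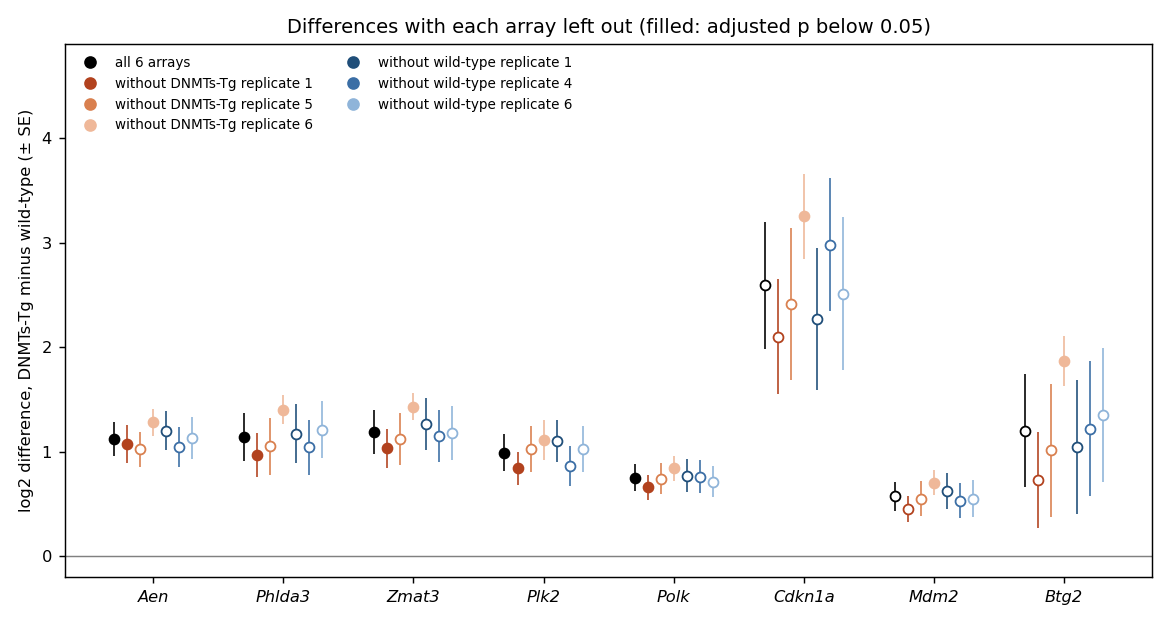
Log2 difference, DNMTs-Tg minus wild-type, with its SE, for 8 member genes with all 6 arrays and with each array left out in turn, in colours named in the legend. Filled points have an adjusted p below 0.05. The differences of the 5 called genes move little (0.66 to 1.43), the 5 are called with DNMTs-Tg replicate 1 or DNMTs-Tg replicate 6 left out and with no other array left out, and Cdkn1a ranges from 2.10 to 3.25.

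Of the 9 arrest genes, all of which passed the filter, 1 rose (Plk2) and 7 lay above 0, with a median of 0.41. Cdkn1a, whose upstream promoter held the 2 half-sites, had the largest difference of the 30 members and did not pass. It read 12.16, 11.55 and 9.87 in DNMTs-Tg replicates 1, 5 and 6 and 7.98, 9.39 and 8.46 in wild-type replicates 1, 4 and 6. The groups did not overlap, but the lowest DNMTs-Tg heart and the highest wild-type heart were near each other and both groups were spread widely (SD 1.19 and 0.72). The mean difference was 2.59 ± 0.61 (SE, adjusted p = 0.0565), a 6.01-fold ratio. Its second probe set gave 2.49 ± 0.57 (adjusted p = 0.0698 over all probe sets).

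Btg2, an antiproliferative protein that works with the deadenylase complex of messenger RNA decay, had the same order of DNMTs-Tg arrays. Its signals were 11.35, 10.79 and 9.06 in DNMTs-Tg replicates 1, 5 and 6, against 8.86, 9.23 and 9.50 in wild-type replicates 1, 4 and 6. DNMTs-Tg replicates 1 and 5 stood above wild-type and replicate 6 within it, and the difference of 1.20 ± 0.54 (SE) did not pass (adjusted p = 0.209). Without DNMTs-Tg replicate 6 it was 1.87 (adjusted p = 0.00917). Sertad1, a regulator of the cyclin D kinase, read 8.84, 8.35 and 7.71 in DNMTs-Tg replicates 1, 5 and 6, against 7.78 to 7.90 in wild-type hearts. Replicates 1 and 5 were above wild-type and replicate 6 below it (0.44 ± 0.26, SE, adjusted p = 0.328).

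Btg1 is the relative of Btg2. Its brightest probe set read 10.86, 10.19 and 10.92 in DNMTs-Tg replicates 1, 5 and 6 and 10.26, 9.96 and 10.53 in wild-type replicates 1, 4 and 6. The groups overlapped, and the difference was 0.41 ± 0.23 (SE, adjusted p = 0.301). A further, dim probe set, removed by the filter, read 4.84, 4.45 and 4.47 in DNMTs-Tg and 3.88, 3.73 and 3.92 in wild-type hearts and passed when every probe set was tested (0.74 ± 0.14, SE, adjusted p = 0.0387). Its wild-type values were all under the 40th percentile of signals on the same array (4.71 to 4.72), so the size of this difference is uncertain.

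The other arrest genes lay close to wild-type. Plk3, a stress-responsive polo-like kinase, differed by 0.19, and Gtse1, a microtubule-binding protein that also restrains p53, by 0.18. Ccng1, the cyclin that brings phosphatase to Mdm2 and a textbook p53 target, was lower on every DNMTs-Tg array by a small step, at 12.83 to 12.87 against 12.92 to 13.05 (-0.14 ± 0.08, SE, adjusted p = 0.281). Its other probe sets differed by -0.31 and -0.26, with groups that overlapped. Psrc1, a spindle protein, differed by -0.14, with a probe set whose suffix marks probes shared with other transcripts.

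In the p53 loop 4 genes were tested, all 4 lay above 0 and Zmat3 rose. Mdm2 read 10.15, 9.94 and 9.65 in DNMTs-Tg replicates 1, 5 and 6 and 9.45, 9.27 and 9.32 in wild-type replicates 1, 4 and 6. The groups did not overlap, and the difference of 0.57 ± 0.14 (SE), or 1.48-fold, did not pass (adjusted p = 0.0684). Its other probe sets differed by 0.25 and -0.10, the last of them dim in both groups. Mdm4 differed by 0.16 ± 0.11 (SE), and its kept probe sets ranged from -0.26 to 0.34, the last of them dim in wild-type hearts. The probe set that stood for Mdm4 also carries the suffix for probes shared with other transcripts. Trp53inp1, a nuclear cofactor of p53 that also acts in autophagy, differed by 0.35 ± 0.23 (SE) with its brighter probe set and by -0.28 with the dimmer one.

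All 7 apoptosis genes tested lay above 0, by 0.02 to 1.14, and Aen and Phlda3 rose. Perp, a membrane protein of desmosomes, read 12.65, 11.92 and 11.65 in DNMTs-Tg replicates 1, 5 and 6, against 11.43 to 11.68 in wild-type hearts. Replicates 1 and 5 were above wild-type and replicate 6 within it (0.52 ± 0.24, SE, adjusted p = 0.221). Dram1, a lysosomal membrane protein of autophagy, was high in replicate 1 alone. It read 7.58 in replicate 1 and 6.59 and 6.52 in replicates 5 and 6, against 6.63 to 6.85 in wild-type hearts.

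Bbc3, the BH3-only protein also called PUMA, was level at 5.64 to 5.83 in DNMTs-Tg and 5.70 to 5.81 in wild-type hearts (0.02 ± 0.11, SE). Apaf1, the core of the apoptosome, differed by 0.21 ± 0.16 (SE), and Ei24, a protein of the endoplasmic reticulum, by 0.14 ± 0.12 (SE). Pmaip1, the BH3-only protein Noxa, did not pass the filter. Its probe set read 4.99, 3.97 and 3.93 in DNMTs-Tg replicates 1, 5 and 6, against 3.31 to 3.79 in wild-type hearts (0.74 ± 0.28, SE, adjusted p = 0.204 over all probe sets), with 5 of the 6 values under the 40th percentile.

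The 5 repair genes went both ways, 3 above 0 and 2 below. Besides Polk, the damage-recognition gene Xpc had groups that did not overlap, with 7.76, 7.79 and 7.49 in DNMTs-Tg replicates 1, 5 and 6 and 7.39, 7.19 and 7.21 in wild-type replicates 1, 4 and 6. Its difference of 0.42 ± 0.13 (SE) did not pass (adjusted p = 0.104). Ercc5, an endonuclease of nucleotide excision repair, differed by 0.25 ± 0.12 (SE) with groups that did not overlap, and its dim probe set by 0.96 ± 0.40 (SE, adjusted p = 0.242). Ddb2, which finds ultraviolet damage together with Ddb1, went in the other direction. It read 5.45, 5.44 and 5.57 in DNMTs-Tg replicates 1, 5 and 6, against 5.75, 5.78 and 5.80 in wild-type replicates 1, 4 and 6. Both of its probe sets gave -0.29, with groups that did not overlap (adjusted p = 0.133 for the gene). The brighter one carries a suffix for probes shared with other transcripts. Rrm2b, the ribonucleotide reductase subunit that p53 induces, differed by -0.17 ± 0.11 (SE), and its 4 probe sets ranged from -0.38 to -0.06.

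None of the 3 metabolic stress genes tested passed, and 1 of them lay above 0. Sesn1, a sestrin that restrains the growth kinase complex mTORC1, read 10.19, 10.76 and 11.16 in DNMTs-Tg replicates 1, 5 and 6, against 10.91 to 11.23 in wild-type hearts (-0.36 ± 0.24, SE). Replicate 1 was the lowest here, the reverse of its place for Cdkn1a and Btg2. Sesn2 differed by 0.10 ± 0.13 (SE), and its dimmer probe set by 0.35 ± 0.14 (SE). Ddit4, another inhibitor of mTORC1, was spread over 9.89 to 10.99 in DNMTs-Tg and 9.84 to 11.14 in wild-type hearts (-0.17 ± 0.40, SE).

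Among the INK4 inhibitors, Cdkn2b read 7.25, 6.66 and 6.06 in DNMTs-Tg replicates 1, 5 and 6 and 5.51, 5.80 and 6.01 in wild-type replicates 1, 4 and 6. The groups did not overlap, by a margin that was small for replicate 6, and the difference of 0.88 ± 0.29 (SE) did not pass (adjusted p = 0.123). Cdkn2c lay slightly lower (-0.28 ± 0.16, SE). Cdkn2a, whose products act in senescence on both the retinoblastoma and the p53 branch, was dim on every array. Its probe set read 3.94, 3.76 and 3.90 in DNMTs-Tg and 3.88, 4.11 and 3.97 in wild-type hearts, below the 40th percentile of each array (4.64 to 4.72), and it was removed by the filter (-0.12 ± 0.11, SE, adjusted p = 0.587 over all probe sets).

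**Figure D5:**
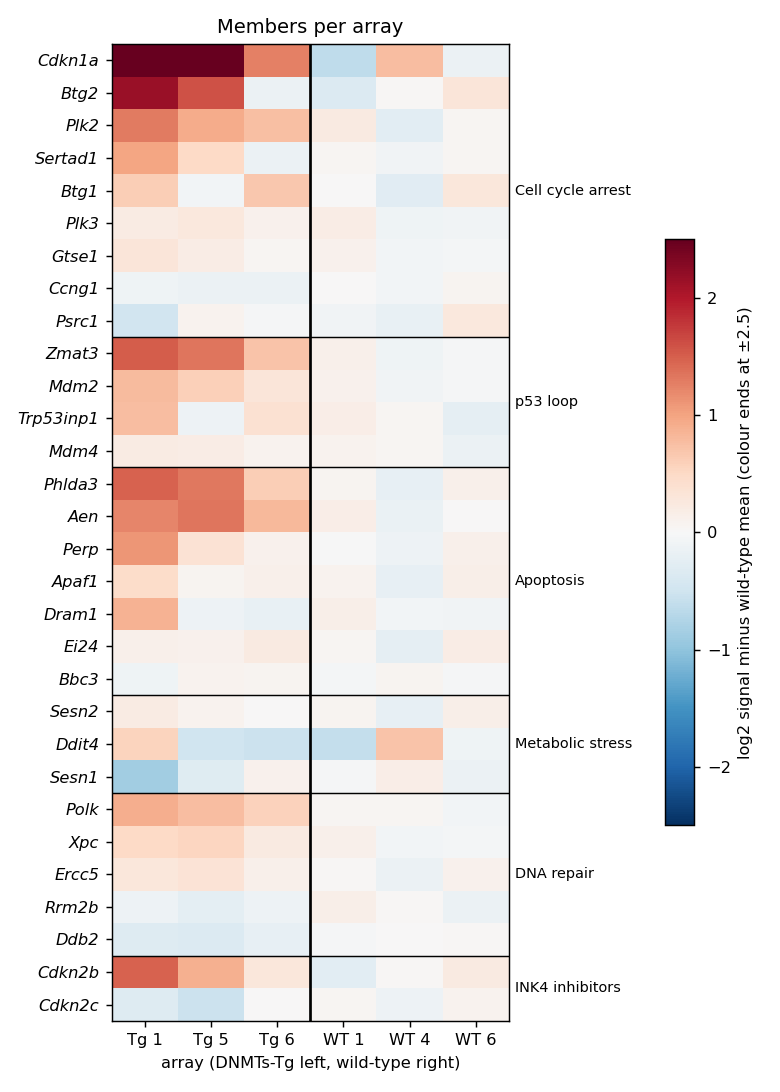
Log2 signal of each of the 30 members minus its wild-type mean, 1 column per array with DNMTs-Tg left and wild-type right, grouped by role. Red is higher and blue lower, and the colours end at 2.5 in either direction. DNMTs-Tg replicate 1 is red for Cdkn1a and Btg2 and blue for Sesn1. Replicate 6 has the lowest DNMTs-Tg value for 19 of the 30 genes, a count given without its share over all genes.

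With every probe set tested and no filter, 6 of the 61 member probe sets rose (9.84%) and 0 fell, against 0.799% and 1.31% of all 45037. The 6 were the brightest probe sets of the 5 called genes and the dim one of Btg1. Of the 61, 37 lay above 0, with a median of 0.19, while the median of all probe sets was -0.025. Several kept probe sets were available for 14 genes, and for 4 of them, Mdm4, Plk2, Polk and Trp53inp1, they differed in sign. Which transcripts each of them reads was not examined.

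Further genes of the pathway were taken from 5 lists of other targets, regulators, damage-response, senescence-associated and glucocorticoid-induced genes. Of 30 measured genes of the further p53 targets, 1 rose and 1 fell, near the shares of all genes (2.24% and 3.15%), with a median of 0.12. Rps27l, a ribosomal protein paralog induced by p53, read 12.58, 12.41 and 12.32 in DNMTs-Tg replicates 1, 5 and 6 and 11.84, 11.75 and 11.87 in wild-type replicates 1, 4 and 6, with no overlap (1.54-fold, 0.62 ± 0.10, SE, adjusted p = 0.0179). Prkab1, a subunit of the energy sensor AMPK, was 1.75-fold lower at 8.26 to 8.51 in DNMTs-Tg against 8.90 to 9.37 in wild-type hearts (-0.80 ± 0.15, SE, adjusted p = 0.0299). Ccng2, the relative of Ccng1, differed by -0.61 (adjusted p = 0.0733) and Ephx1, an epoxide hydrolase, by 0.64 (adjusted p = 0.0827).

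Of 31 regulators of p53, 0 rose and 1 fell, the histone methyltransferase gene Kmt5a (-0.39 ± 0.08, SE, adjusted p = 0.0433), with 11.56 to 11.69 in DNMTs-Tg and 11.99 to 12.04 in wild-type hearts. Rrn3, a factor of ribosomal RNA transcription, stood at 0.59 (adjusted p = 0.0792) and the stress kinase gene Mapk14 at -0.48 (adjusted p = 0.0795). Of 26 damage-response genes 0 rose and 1 fell. This was Xrcc6, the Ku70 subunit of double-strand break repair, at 7.29 to 7.45 in DNMTs-Tg against 7.83 to 7.97 in wild-type hearts (-0.52 ± 0.11, SE, adjusted p = 0.0385). The list median was -0.17, and Hus1 (-0.42, adjusted p = 0.135) and Rad50 (0.38, adjusted p = 0.144) came next. Unadjusted p was below 0.05 for 9 further targets, 9 regulators and 7 damage-response genes, where 26.0% of all genes were so. The called counts of the regulators and the damage-response genes were likewise near the 2.24% higher and 3.15% lower of all genes. With DNMTs-Tg replicate 5, wild-type replicate 1, 4 or 6 left out, 0 genes of all 5 lists were called higher, and 0, 0, 1 and 0 were called lower.

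None of the 29 senescence-associated genes passed, 22 of them lay above 0 and the median was 0.14. Timp1, an inhibitor of matrix metalloproteases, read 10.84, 8.53 and 7.41 in DNMTs-Tg replicates 1, 5 and 6, against 5.72 to 6.19 in wild-type hearts, without overlap but with a wide spread (2.90 ± 0.77, SE, adjusted p = 0.0759). Mmp12, the macrophage elastase, read 7.22, 5.39 and 4.74 against 4.06 to 4.23 (1.61 ± 0.57, SE, adjusted p = 0.135). The list averaged 0.61, 0.22 and 0.24 above the wild-type mean in DNMTs-Tg replicates 1, 5 and 6, and the macrophage markers of the same arrays were 1.30, -0.14 and -0.00. Mmp12 was dim in wild-type hearts. Without DNMTs-Tg replicate 1 both genes passed, Timp1 at 1.94 (adjusted p = 0.0183) and Mmp12 at 0.90 (adjusted p = 0.0425). Without DNMTs-Tg replicate 6 they passed at 3.66 (adjusted p = 0.021) and 2.14 (adjusted p = 0.0422), and with any of the other 4 arrays left out neither passed.

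Ddit4 is also induced by glucocorticoids, and none of 14 other glucocorticoid-induced genes passed. Their list value was 0.89 in DNMTs-Tg replicate 1, -0.02 and 0.04 in replicates 5 and 6, and -0.08 to 0.13 on wild-type arrays. The metallothionein gene Mt1 (0.74, adjusted p = 0.0659) and the kinase gene Sgk1 (0.44, adjusted p = 0.273) had the smallest p.

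Eda2r, a p53-induced receptor of the tumour necrosis factor family and therefore no member, rose as well, with 7.79, 7.92 and 7.22 in replicates 1, 5 and 6 and 5.33, 4.79 and 5.59 in wild-type replicates 1, 4 and 6 (5.28-fold, adjusted p = 0.0053). DNMTs-Tg replicate 6 was its lowest DNMTs-Tg array. Its call held in each fit without 1 array. Markers of other cell types that hearts may contain gave 1 call among 10 endothelial markers (Vwf, 1.39, adjusted p = 0.0178) and 2 among 6 neutrophil markers (S100a8, 1.86, adjusted p = 0.0222, and S100a9, 2.14, adjusted p = 0.0336), and 0 calls among 12 macrophage, 12 fibroblast, 10 cardiomyocyte, 8 smooth muscle and pericyte, 6 lymphocyte, 2 erythroid and 1 adipocyte marker. The 8 markers of dividing cells gave 0 calls, and their list value was highest in DNMTs-Tg replicate 6 (1.07, with 0.22 and 0.03 in replicates 1 and 5 and -0.22 to 0.22 on wild-type arrays). The 9 arrest genes averaged 0.94, 0.70 and 0.27 in DNMTs-Tg replicates 1, 5 and 6.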

How the data were processed

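Total RNA of heart tissue was hybridised to Affymetrix GeneChip arrays, 1 per mouse, per the labels' protocols. The authors deposited 1 log2 signal per probe set and array, with array medians of 5.28 to 5.33. The sources used here do not name the background correction, normalization or software, and no detection calls were used. Probe sets were named through the platform annotation and updated to GRCm38.p6 gene symbols. The 64 control probe sets were left out.

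The filter on dim probe sets required a signal over the 40th percentile of the same array on 3 or more of the 6 arrays, which 27319 passed. The brightest of these by its mean stood for its gene, which gave 13621 genes. Differences were tested with limma 3.58.1 in R 4.3.3 (lmFit, eBayes with a trend, 2-sided, Benjamini-Hochberg, threshold 0.05). All 45037 probe sets were also tested unfiltered. Replicate numbers 1 and 6 occur in both groups, and no label says that they pair the mice. Precision is limited by the number of arrays. An exact permutation test could reach no p under 0.1 with 3 against 3. On simulated data with these 13621 genes, 68% of 100 genes changed 2-fold and 94% of 100 changed 4-fold were recovered, with 0 wrong signs and 6 unchanged genes called. The simulation gave each gene the same spread in both groups and no shift shared within an array. The measured arrays differ from it in both, so these rates may not hold for them. Genes given with the value of each array are the members called in either fit or differing by 1 or more (log2), with Cdkn1a, Mdm2 and Cdkn2a always included. A few further members were given so after their values were seen. Of each pathway list the called genes and the 2 with the smallest other p are given. The members and lists were chosen with earlier results of these data known.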

Additional observations from a re-analysis of the deposited data

How the results depend on the processing

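The count of 5 members called higher was the same under quantile normalization, a common median, no filter, a filter at the 60th percentile, and eBayes without a trend or robust, and 7 at an adjusted p of 0.1, where 5.62% of all genes were higher and 6.50% lower. With the mean of a gene's kept probe sets it was 3, without Plk2 and Polk, and 2.03% of all genes were higher. Array weights gave 13 higher and 4 lower, but the same fit called 17.1% and 18.3% of all genes and the weights did not fully converge. With the replicate block 0 members were called and 0.00734% of all genes rose. That fit compares the groups only within numbers 1 and 6, which occur in both, so it could call few genes. The numbers were not taken as pairs, because no label says that they are. The same-numbered arrays did not deviate together (r = -0.054 and -0.08), but such arrays are too few for this check to decide. With 1 array left out the count ranged from 0 to 11. Of the member probe sets 6 rose with all arrays. The counts were 16 higher and 1 lower with array weights, and 0 higher with the replicate block. At an adjusted p of 0.1 there were 10 higher, and with 1 array left out 0 to 13. The shares of all probe sets called in these fits are not given here. How far these counts follow a change in calls over all probe sets was therefore not tested. Over the 5 pathway lists together, array weights gave 27 higher and 21 lower, the replicate block 0 and 0, an adjusted p of 0.1 gave 6 and 5, which is below those shares of all genes, and fits without 1 array gave 0 to 11 higher and 0 to 8 lower. The median of the members stayed between 0.15 and 0.38 in the settings run. For the named genes, 56 of the values under an alternative lost a call, 24 gained one and 303 did neither, with no call reversed. The cause was not tested. Kmt5a, called in the lists, missed the threshold with a common median (adjusted p = 0.0505), without a trend (adjusted p = 0.0664), with no filter (adjusted p = 0.0559) and with the mean of its probe sets (adjusted p = 0.195).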
